A study of Rattus norvegicus with 12 samples.

Results

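The proteasome genes of rat cardiac progenitor cells encode the subunits of the cell's main protein-degrading particle, its activators, its inhibitor and several of its assembly chaperones. They were taken as every rat protein-coding symbol that begins with Psma, Psmb, Psmc, Psmd, Psme, Psmf or Psmg and a digit, with at least 10 counts over the 12 libraries. Of the 16924 genes in the count files, 49 carry such a symbol, and 48 met the count limit. Psma8, a germ-cell alpha subunit, had 3 counts in all and was left out. Of the 48, 47 passed the filter on low counts and were tested, and Psmb11, the beta subunit known from the thymus, had 44 counts in all and was not tested. Psmg3, Psmb3l1, Psmb3l2, Psmb6l1 and Psmg4l1 were not analysed here.

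The study measured total RNA of cells 2 h after seeding on fibronectin, on laminin and on dishes with no coating, and of cells in suspension, with 3 libraries in each group. Fibronectin and laminin are matrix proteins to which cells attach through integrins. All cells came from 1 clone of rat cardiac progenitor cells, so the 3 libraries of a group are batches of 1 line and p-values measure the spread between batches, not between animals. All groups had been grown in F12 medium with fetal bovine serum, leukemia inhibitory factor, basic fibroblast growth factor, erythropoietin and glutathione, and the labels give seeding at low density and 0.1% serum during the 2 h. The same protocol text stands with the suspension libraries, and how these cells were handled is not described in it. The labels name a batch, B1 to B3, that equals the replicate number in each group, without saying what a batch shared.

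The proteasome degrades proteins marked with ubiquitin. Its barrel, the 20S core, is built of stacked rings of alpha subunits, which gate the entrance, and beta subunits, of which Psmb5, Psmb6 and Psmb7 cut peptide bonds. The 19S cap binds ubiquitin chains, removes them and unfolds the protein with a ring of ATPases. Transcription of the subunit genes is known to rise as a set through the factor Nrf1 when proteasome activity falls, and interferon induces the immunoproteasome beta subunits that replace the standard catalytic ones.

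Library totals lay between 15875160 and 20852160 counts, and ribosomal RNA genes took 0.448% to 4.24% of them. Vim, a mesenchymal intermediate filament, stood between 4456 and 5730 CPM (counts scaled to the library total), and the cardiac factor Gata4 between 74.5 and 98.4 CPM. Vim rose on fibronectin and laminin, with log2 fold changes against suspension of 0.25 ± 0.06 (adjusted p = 0.0266 by edgeR's quasi-likelihood test), 0.26 ± 0.06 (adjusted p = 0.0151) and, without coating, 0.17 ± 0.06 (adjusted p = 0.0822); the fibronectin call was lost in each fit that left out 1 library. Col1a1, another mesenchyme marker, stood at 1012, 828 and 1208 CPM in laminin libraries 1 to 3, against 1423, 1194 and 1136 CPM in suspension. Col3a1 stood between 269 and 488 CPM, and Thy1 had 18 counts. Without batch 3, 1 of the 3 tested mesenchyme markers rose and 1 fell on laminin. Of the endothelium markers, Flt1 stood between 99.1 and 182 CPM, while Pecam1, Cdh5 and Tie1 had 59, 10 and 65 counts. Nkx2-5, Myh7 and Abcg2 had 0 counts and Myh6 had 1 count, so the myosin heavy chains of heart muscle were at or near 0 counts at this depth. Kit, the receptor for which such progenitors are known, stood between 2.39 and 3.69 CPM. Tnnt2, the cardiac troponin T gene, had 930 counts, at 3.86 to 5.49 CPM on fibronectin, 5.04 to 5.83 CPM on laminin, 4.65 to 6.16 CPM without coating and 1.57 to 2.05 CPM in suspension. Tnnt2 rose on each surface, with log2 fold changes of 1.39 ± 0.19 (adjusted p = 0.00104), 1.56 ± 0.18 (adjusted p = 0.000343) and 1.60 ± 0.18 (adjusted p = 0.000312), which held in each of 8 other settings and each fit that left out 1 library of the comparison. Of the 8 blood cell markers, the defining Ptprc had 3 counts and Tyrobp had 0, while their summed level was 56.9 to 63.8 CPM on fibronectin, 59.4 to 65.7 CPM on laminin, 51.8 to 59.6 CPM without coating and 37.2 to 39.6 CPM in suspension, most of it from Cd14. The other blood cell markers did not share 1 direction. Laptm5 rose with Cd14 on each surface, though its calls were lost without batch 3. Cd53, with 173 counts, lay below suspension in every plated library, and Cd68, with 205 counts, overlapped suspension on each surface. The sum of blood cell markers, Tnnt2 and Vim moved with the plated groups, and their part in the results was not tested. The plated libraries of replicate 3 were looked at apart from replicates 1 and 2. Of the 10020 genes tested, 32.7% were higher in replicate 3 than in both others on each of the 3 surfaces, and 23.9% lower. In suspension replicate 3 was the highest of its group in 28% and the lowest in 21%. Replicates 1 and 2 were not counted this way, so these shares do not show that replicate 3 differed more than they did. Results are also given without batch 3. Of the 48 genes, 19 have pseudogenes named for them in RefSeq, 46 in all, and 0 of these had a row in the files. Their sequences were not compared with the genes, and counts of those 19 may hold reads of pseudogenes. In these bulk libraries fewer cells of a type and less RNA per cell cannot be told apart.

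Proteasome transcripts took a larger share of the library in every plated sample than in any suspension sample. The 48 genes together made up 0.924, 0.979 and 1.03% in fibronectin libraries 1 to 3, 1.002, 1.03 and 1.05% on laminin, 0.940, 0.999 and 1.04% without coating and 0.883, 0.878 and 0.909% in suspension, or 0.979 ± 0.055% on fibronectin, 1.03 ± 0.023% on laminin, 0.993 ± 0.051% without coating and 0.890 ± 0.017% in suspension (SD, n = 3 each). No plated value overlapped a suspension value, and the lowest plated one was that of fibronectin 1, the library with the most ribosomal RNA counts.

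Gene by gene, the median log2 fold change against suspension was 0.23 on fibronectin, 0.25 on laminin and 0.23 without coating over the 47 genes, while the median of all 10020 genes was 0.00, -0.01 and 0.00. The log2 fold change was above 0 for 42, 41 and 39 of the 47 genes on the 3 surfaces, against 50.1%, 48.9% and 50.3% of all genes. All of these fold changes, their standard errors and the p-values come from edgeR's quasi-likelihood test on the counts with Benjamini-Hochberg adjustment over all genes, and a gene is called at an adjusted p under 0.05. On fibronectin 5 genes rose and 0 fell (1 lower at an unadjusted p under 0.05, 0 by DESeq2), or 10.6% of the 47. Of all genes 9.67% were called there, with 6.61% higher and 3.06% lower. On laminin 21 rose and 0 fell (0 lower at an unadjusted p under 0.05, 0 by DESeq2), or 44.7%. Of all genes 19% were called, with 12.1% higher and 6.96% lower. Without coating 14 rose and 0 fell (again 0 lower by both), or 29.8%. Of all genes 12.6% were called, with 8.48% higher and 4.1% lower. Counts called by role and by list below are to be read beside these shares of all genes. The 3 comparisons share the suspension libraries. Psma1, Psma5, Psmb2 and Psmb10 were called on all 3 surfaces, 10 genes on 2, 8 genes on 1 and 25 genes on none. For 27, 32 and 27 of the 47 genes (57.4%, 68.1% and 57.4%) the 3 plated libraries all lay above the 3 suspension libraries, against 16.4%, 22% and 17.6% of all genes. All 3 lay below suspension for 2, 1 and 2 genes, against 24.1%, 23% and 23.5% of all genes. Set against the suspension library of the same batch, 32, 33 and 29 genes (68.1%, 70.2% and 61.7%) were higher in each of the 3 batches, against 25.4%, 30.1% and 25.9% of all genes, and 3, 2 and 5 were lower in each, against 34.4%, 31% and 32.1%.

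**Figure D1:**
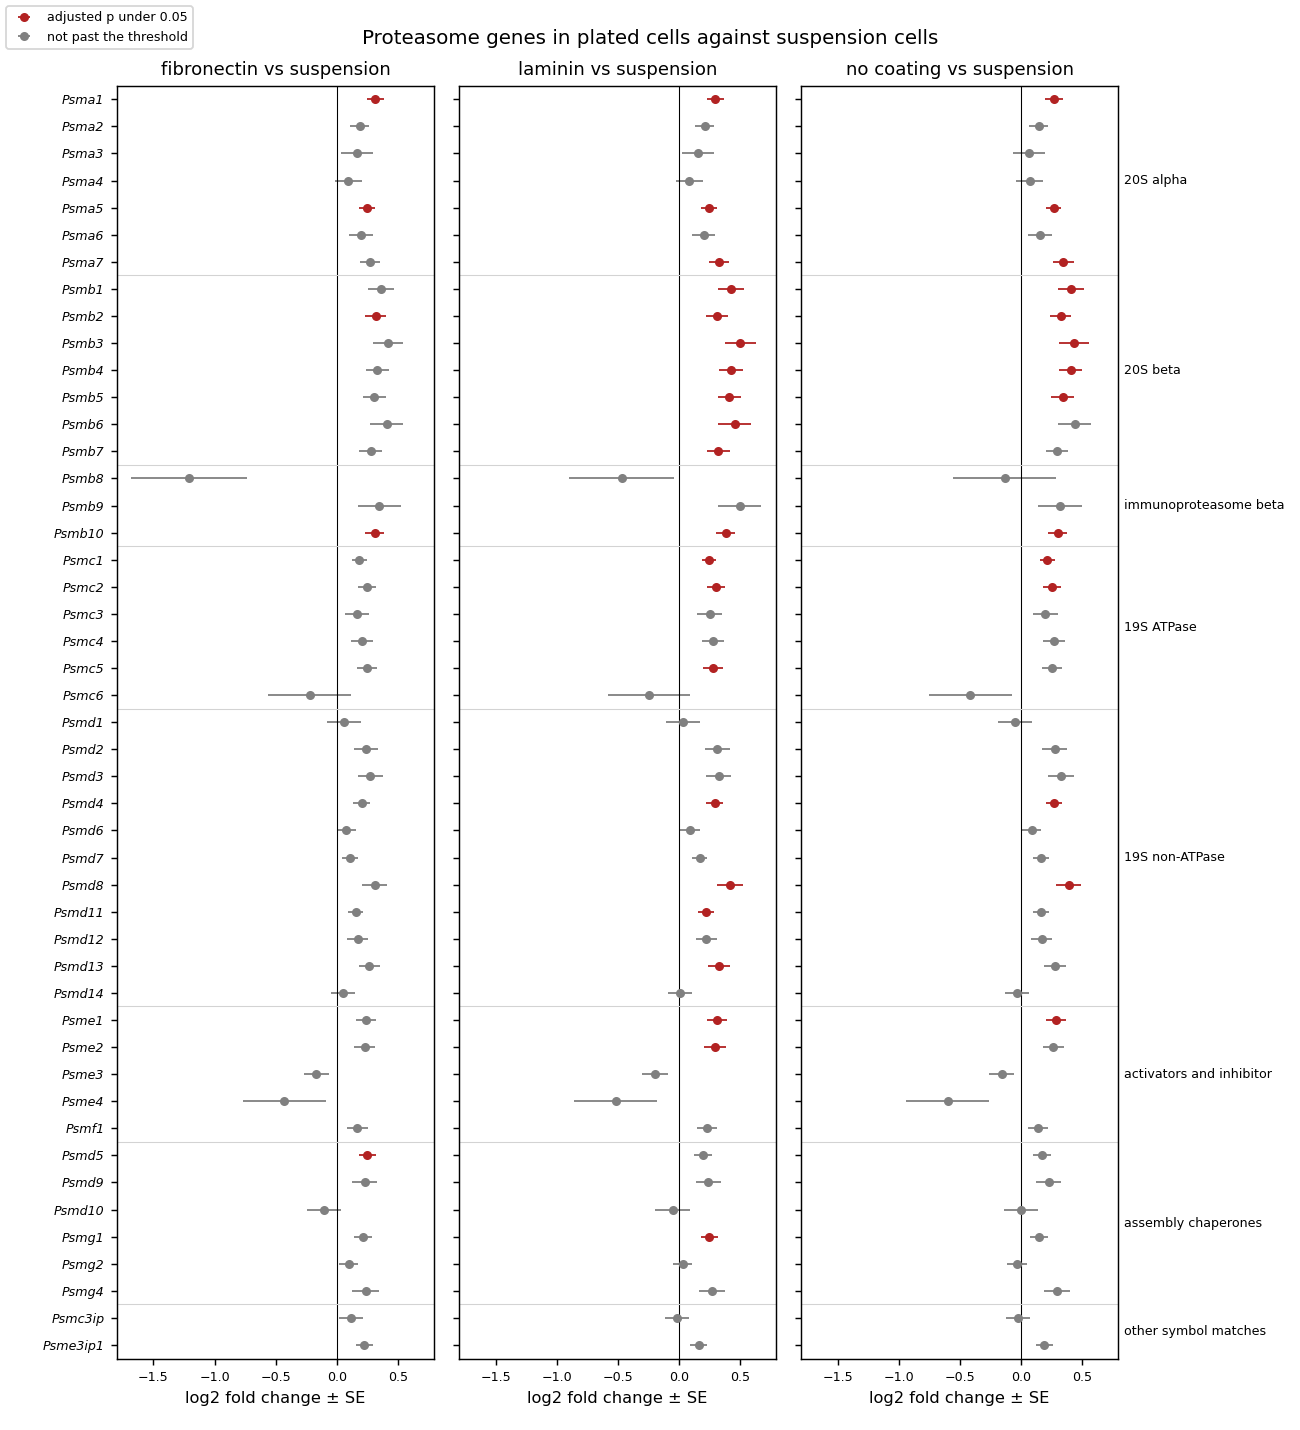
Log2 fold change with its standard error for the 47 tested proteasome genes, in order of role, in fibronectin, laminin and no coating cells against suspension cells; red points passed an adjusted p of 0.05. The 7 standard 20S beta genes lie between 0.28 and 0.50 on every surface, while Psme4 and Psmc6 lie below 0 with wide errors.

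With the batch as a block, which the labels' shared batches allow and which assumes the same batch shift in every group, 25 genes rose and 1 fell on fibronectin, 32 rose and 2 fell on laminin, and 28 rose and 2 fell without coating, while 28.7%, 43.2% and 38.8% of all genes were called in either direction. Block counts by role and by list below are to be read beside these shares of all genes. Without batch 3 the calls numbered 3, 21 and 6, all higher, or 6.38%, 44.7% and 12.8% of the 47, while 9.25%, 18.9% and 12% of all genes were called. The share of proteasome genes called was then below that of all genes on fibronectin and close to it without coating. Of the 40 calls against suspension, 1 held in each of the 6 fits that left out 1 library of its comparison, Psmb10 on laminin, and 7 held in none. Those 7 were Psma5 and Psmd5 on fibronectin and Psmb2, Psmb7, Psmd11, Psme2 and Psmg1 on laminin. A further 17 calls held in 1 of the 6 fits and 9 in 2. The 5 fibronectin calls became 0 without suspension 2 or fibronectin 3, 1 without suspension 1, suspension 3 or fibronectin 1, 3 without laminin 1, 2 without laminin 2 or no coating 2, 9 without no coating 1 and 13 without no coating 3; without fibronectin 2 there were 4 rises and 1 fall, and 5 rises without laminin 3. The 21 laminin calls became 2 without suspension 2, 5 without suspension 1 or suspension 3, 7 without laminin 3 and 8 without laminin 2, and lay between 16 and 27 without any other library. The 14 calls without coating became 0 without suspension 2 or suspension 3, 1 without suspension 1 or no coating 3, 2 without no coating 2, 8 without fibronectin 1 and 9 without laminin 2, and lay between 10 and 20 without any other library. The number of genes called thus moved with single libraries, while the median log2 fold change of the 47 genes stayed between 0.18 and 0.29 in the fits that left out 1 library.

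The standard 20S beta subunits showed the largest median log2 fold change of the particle's parts on each surface, 0.33 on fibronectin, 0.43 on laminin and 0.41 without coating. Of the 7 genes, 1 rose on fibronectin, 7 on laminin and 5 without coating, and in all 7 the plated libraries lay above every suspension library on each surface. With the batch block all 7 rose on each surface. The block assumes an equal batch shift in every group. In these genes replicate 3 differed from the mean of the others by a median log2 of 0.21 to 0.36 when plated and 0.05 in suspension. Psmb5 stood at 193, 199.5 and 223 CPM in fibronectin libraries 1 to 3 and 210.5, 219 and 248 CPM on laminin. On uncoated dishes Psmb5 stood at 186, 204 and 249.9 CPM, against 176, 161 and 173 CPM in suspension. The 3 suspension libraries were the lowest of the 12, and replicate 3 was the highest of each plated group. Psmb5, the chymotrypsin-like active subunit, gave log2 fold changes of 0.31 ± 0.09 (adjusted p = 0.0625) on fibronectin, 0.41 ± 0.09 (adjusted p = 0.0142) on laminin and 0.34 ± 0.09 (adjusted p = 0.0381) without coating.

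The other catalytic subunits of the standard particle also had positive log2 fold changes. Psmb6 stood at 70.5, 63.6 and 83.7 CPM in fibronectin libraries 1 to 3 and 68.6, 72.3 and 89.8 CPM on laminin. On uncoated dishes Psmb6 stood at 62.2, 73.6 and 90.2 CPM, against 59.1, 51.8 and 57.2 CPM in suspension. Every plated library lay above the suspension range, and the log2 fold change of Psmb6, the caspase-like active subunit, was 0.41 ± 0.14 (adjusted p = 0.0841) on fibronectin, 0.46 ± 0.14 (adjusted p = 0.0413) on laminin and 0.44 ± 0.14 (adjusted p = 0.0587) without coating. Psmb7 stood at 232, 247 and 288 CPM in fibronectin libraries 1 to 3 and 254, 267 and 289 CPM on laminin. On uncoated dishes Psmb7 stood at 230.2, 255 and 302 CPM, against 216, 212 and 221 CPM in suspension. No plated library fell into the suspension range. Psmb7, the trypsin-like active subunit, gave 0.28 ± 0.09 (adjusted p = 0.0817) on fibronectin, 0.32 ± 0.09 (adjusted p = 0.0341) on laminin and 0.30 ± 0.09 (adjusted p = 0.0587) without coating. Both genes thus passed the threshold on laminin and missed it on the other surfaces.

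The remaining beta subunits have structural places in the ring. Psmb4 stood at 304, 315 and 363 CPM in fibronectin libraries 1 to 3 and 349.9, 332 and 393 CPM on laminin. On uncoated dishes Psmb4 stood at 308, 330.3 and 409 CPM, against 276, 249 and 273 CPM in suspension. Psmb4 was lowest in suspension and highest in the replicate 3 libraries, with log2 fold changes of 0.33 ± 0.10 (adjusted p = 0.0552) on fibronectin, 0.43 ± 0.10 (adjusted p = 0.0136) on laminin and 0.41 ± 0.10 (adjusted p = 0.0222) without coating. Its laminin call was lost without suspension 2 and held without each of the other 5 libraries of the comparison. Psmb2 measured 168, 159.9 and 194 CPM in fibronectin libraries 1 to 3 and 173, 171 and 188 CPM on laminin. On uncoated dishes Psmb2 measured 158, 172 and 202 CPM, against 143, 142 and 143 CPM in suspension. The suspension libraries were close together and below every plated library, and Psmb2 gave 0.32 ± 0.09 (adjusted p = 0.0427) on fibronectin, 0.31 ± 0.09 (adjusted p = 0.0304) on laminin and 0.33 ± 0.09 (adjusted p = 0.0326) without coating. The Psmb2 calls on fibronectin, on laminin and without coating held in 1, 0 and 1 of the 6 fits that left out 1 library. Psmb1 reached 234, 237 and 276 CPM in fibronectin libraries 1 to 3 and 243, 251 and 306 CPM on laminin. On uncoated dishes Psmb1 reached 226, 253 and 303 CPM, against 193, 194 and 208 CPM in suspension. The ranges again did not overlap, with 0.36 ± 0.11 (adjusted p = 0.057) on fibronectin, 0.43 ± 0.11 (adjusted p = 0.0203) on laminin and 0.41 ± 0.11 (adjusted p = 0.0311) without coating. Psmb3 had the largest log2 fold change of the 7 on fibronectin and laminin, with 0.42 ± 0.12 (adjusted p = 0.0579) on fibronectin, 0.50 ± 0.12 (adjusted p = 0.0194) on laminin and 0.43 ± 0.12 (adjusted p = 0.0455) without coating.

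**Figure D2:**
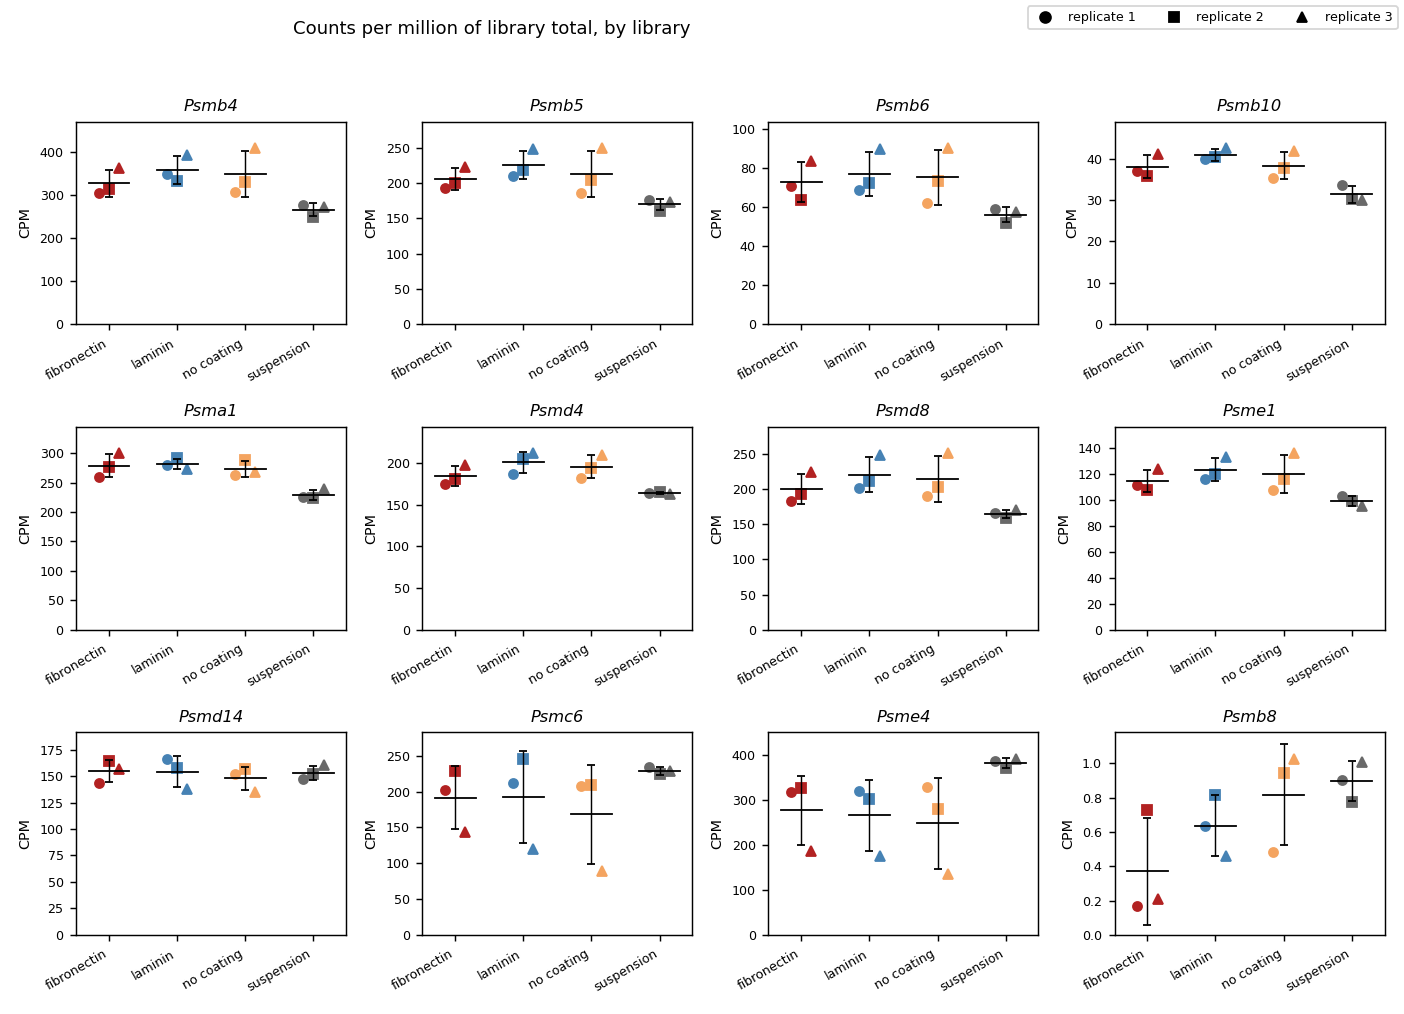
CPM of 12 proteasome genes in each library, with points by replicate, the group mean as a line and the SD as a bar, for fibronectin, laminin, no coating and suspension. Psmb4, Psmb5, Psmb6, Psmb10, Psma1, Psmd4, Psmd8 and Psme1 lie above suspension in every plated library, and replicate 3 of the plated groups is the lowest for Psmc6 and Psme4.

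Promoter sequence was available from RefSeq (assembly GRCr8) for 43 of the 48 genes, as the 250 bases before the transcription start and the 50 after it. The antioxidant response element core, searched as TGACNNNGC on both strands, is the core to which Nrf1 and Nrf2 bind; it was found in 8 of the 43 promoters (18.6%), against 12.1% of 33469 rat promoters and 14.9% of the 8622 promoters of tested genes. Psmb2, Psmb5 and Psmb6, which rose on laminin, and Psme4, which did not pass the threshold, each held 1 match. The other promoters with a match were those of Psma3, Psmd1, Psmd3 and Psmd9, which were called on no surface. The letters around each match are shown 5′ to 3′ on the strand of the gene, upstream of the start, with the match in capitals; a match in Psme4 runs on the opposite strand.
Psmb2, chr5:144254960-144255028, plus strand: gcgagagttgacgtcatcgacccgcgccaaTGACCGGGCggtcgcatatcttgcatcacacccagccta
Psmb5, chr15:32047401-32047469, minus strand: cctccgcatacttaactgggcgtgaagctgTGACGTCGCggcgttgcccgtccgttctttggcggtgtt
Psmb6, chr10:55737834-55737887, plus strand: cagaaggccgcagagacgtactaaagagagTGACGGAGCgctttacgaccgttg
Psme4, chr14:108706558-108706626, plus strand: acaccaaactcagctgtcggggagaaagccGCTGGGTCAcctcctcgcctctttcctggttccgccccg

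The core bound by ETS factors, searched as CCGGAAG on both strands, was found in 15 of the 43 promoters (34.9%), against 8.75% of all promoters and 19.3% of those of tested genes. Psmb4 held 1 and Psmb7 held 2, and Psmc1 and Psmc2 of the ATPase ring 1 each, as did Psmc6, which did not pass the threshold. The core was also found in Psmd4, Psmd11, Psmd13 and Psmg1, which were called on at least 1 surface. It was found as well in Psma6, Psmd7, Psme3, Psme4, Psme3ip1 and Psmc3ip, which were called on none. The CCAAT box, searched as CCAAT, was found in 22 (51.2%, against 37.5% and 37.9%) and the GC box, searched as GGGCGG, in 30 (69.8%, against 33.1% and 63.9%), both on either strand. These are matches of letters in a window and not measured binding, and they occurred beside genes that rose and genes that did not. The windows of Psmb4, which rose on laminin and without coating, of Psmb7, which rose on laminin, and of Psmc6 are shown, since they set called genes beside an uncalled one, with matches in capitals.
Psmb4, chr2:185134562-185134613, minus strand: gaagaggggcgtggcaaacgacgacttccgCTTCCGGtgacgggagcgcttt
Psmb7, chr3:42827471-42827554, minus strand: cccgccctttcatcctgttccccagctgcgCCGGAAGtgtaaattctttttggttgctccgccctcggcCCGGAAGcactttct
Psmc6, chr15:21022215-21022281, plus strand: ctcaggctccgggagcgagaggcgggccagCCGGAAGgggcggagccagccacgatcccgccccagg

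The 20S alpha subunits, which close the ends of the barrel, showed smaller median log2 fold changes of 0.20 on fibronectin, 0.21 on laminin and 0.16 without coating. Of 7 genes, 2 rose on fibronectin, and 3 each on laminin and without coating; with the batch block the counts were 3, 4 and 3. Psma1 stood at 260.3, 277 and 299.7 CPM in fibronectin libraries 1 to 3 and 280.4, 292 and 274 CPM on laminin. On uncoated dishes Psma1 stood at 263, 289 and 268 CPM, against 226, 224 and 239 CPM in suspension. All plated libraries lay above all suspension libraries, and Psma1 gave 0.32 ± 0.07 (adjusted p = 0.019) on fibronectin, 0.30 ± 0.07 (adjusted p = 0.016) on laminin and 0.27 ± 0.07 (adjusted p = 0.03) without coating. Its fibronectin call was the one that held in all 8 other settings of the fit, and was lost without suspension 1, suspension 2 or fibronectin 3.

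Psma5 stood at 226, 241 and 259.8 CPM in fibronectin libraries 1 to 3 and 249.6, 252 and 240.1 CPM on laminin. On uncoated dishes Psma5 stood at 237, 251 and 256 CPM, against 202, 211 and 212 CPM in suspension. The lowest plated library lay above the highest suspension library, and Psma5 gave 0.25 ± 0.06 (adjusted p = 0.0353) on fibronectin, 0.25 ± 0.06 (adjusted p = 0.0245) on laminin and 0.27 ± 0.06 (adjusted p = 0.0236) without coating. The Psma5 calls on fibronectin, on laminin and without coating held in 0, 1 and 1 of the 6 fits that left out 1 library. Psma7 stood at 232, 245 and 274 CPM in fibronectin libraries 1 to 3 and 245, 266 and 287 CPM on laminin. On uncoated dishes Psma7 stood at 239.8, 257 and 304 CPM, against 216, 209 and 211 CPM in suspension. Its plated libraries too lay above suspension, with 0.27 ± 0.08 (adjusted p = 0.0614) on fibronectin, 0.33 ± 0.08 (adjusted p = 0.0219) on laminin and 0.35 ± 0.08 (adjusted p = 0.0222) without coating. Psma2, Psma3, Psma4 and Psma6 passed on no surface, with log2 fold changes between 0.07 and 0.21, and replicate 3 of laminin and of no coating was below replicates 1 and 2 in Psma3, Psma4 and Psma6.

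Of the 3 tested immunoproteasome beta genes, 1, Psmb10, rose on each surface. Psmb10 stood at 37.0, 35.9 and 41.1 CPM in fibronectin libraries 1 to 3 and 39.9, 40.3 and 42.6 CPM on laminin. On uncoated dishes Psmb10 stood at 35.3, 37.7 and 41.8 CPM, against 33.7, 30.3 and 30.1 CPM in suspension. Psmb10, which takes the place of Psmb7 in the immunoproteasome, was above suspension in every plated library. It gave 0.31 ± 0.08 (adjusted p = 0.03) on fibronectin, 0.39 ± 0.08 (adjusted p = 0.00804) on laminin and 0.30 ± 0.08 (adjusted p = 0.0286) without coating, and its laminin call had the smallest p of any proteasome gene. The laminin call held in each of the 6 fits that left out 1 library. The calls on fibronectin and without coating held in 2 of 6 each, and both were lost without batch 3.

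Psmb9 stood at 8.61, 8.82 and 9.94 CPM in fibronectin libraries 1 to 3 and 9.88, 9.45 and 11.8 CPM on laminin. On uncoated dishes Psmb9 stood at 7.56, 8.38 and 11.4 CPM, against 9.12, 7.32 and 5.60 CPM in suspension. Psmb9, which replaces Psmb6, overlapped suspension on fibronectin and without coating, and lay above it on laminin. Its log2 fold changes of 0.35 ± 0.18 (adjusted p = 0.235) on fibronectin, 0.50 ± 0.18 (adjusted p = 0.0711) on laminin and 0.32 ± 0.18 (adjusted p = 0.231) without coating did not pass the threshold. Psmb8 stood at 0.170, 0.731 and 0.210 CPM in fibronectin libraries 1 to 3 and 0.632, 0.815 and 0.462 CPM on laminin. On uncoated dishes Psmb8 stood at 0.482, 0.945 and 1.03 CPM, against 0.906, 0.776 and 1.01 CPM in suspension. Psmb8, which replaces Psmb5, had 145 counts over the 12 libraries, and its differences of -1.21 ± 0.47 (adjusted p = 0.13) on fibronectin, -0.47 ± 0.43 (adjusted p = 0.446) on laminin and -0.13 ± 0.42 (adjusted p = 0.842) without coating were not past the threshold; only on fibronectin did all 3 libraries lie below suspension.

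In the 19S cap, the 6 ATPases that unfold substrates had a median log2 fold change of 0.20 on fibronectin, 0.27 on laminin and 0.23 without coating, with 0, 3 and 2 genes called; on fibronectin 4 had an unadjusted p under 0.05 and DESeq2's Wald test called 2. With the batch block 4, 5 and 5 of the 6 rose. Psmc1 stood at 289, 289 and 321 CPM in fibronectin libraries 1 to 3 and 315, 320.2 and 325 CPM on laminin. On uncoated dishes Psmc1 stood at 294, 303 and 334 CPM, against 271, 261 and 279 CPM in suspension. Suspension held its 3 lowest values. Psmc2 was measured at 275, 291 and 335 CPM in fibronectin libraries 1 to 3 and 309.6, 314 and 333 CPM on laminin. On uncoated dishes Psmc2 was measured at 284, 297 and 336 CPM, against 258, 252 and 265 CPM in suspension. In both genes every plated library lay above the suspension range. The log2 fold change of Psmc1 was 0.19 ± 0.06 (adjusted p = 0.0743) on fibronectin, 0.25 ± 0.06 (adjusted p = 0.0182) on laminin and 0.22 ± 0.06 (adjusted p = 0.0388) without coating, and that of Psmc2 was 0.25 ± 0.07 (adjusted p = 0.0565) on fibronectin, 0.30 ± 0.07 (adjusted p = 0.018) on laminin and 0.26 ± 0.07 (adjusted p = 0.0443) without coating. Psmc5 rose on laminin (0.28 ± 0.08 (adjusted p = 0.0346)). Psmc3 and Psmc4 missed the threshold on each surface, with log2 fold changes between 0.17 and 0.28.

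Psmc6, an ATPase of the same ring, departed from the others; it was singled out after its values were seen. Psmc6 stood at 202, 229 and 144 CPM in fibronectin libraries 1 to 3 and 211, 246 and 120.3 CPM on laminin. On uncoated dishes Psmc6 stood at 208, 209 and 88.5 CPM, against 235, 224 and 228 CPM in suspension. The low values are those of the plated replicate 3 libraries, while plated replicates 1 and 2 lay between 202 and 246 CPM, around the suspension range. The log2 fold change was -0.22 ± 0.34 (adjusted p = 0.703) on fibronectin, -0.24 ± 0.34 (adjusted p = 0.623) on laminin and -0.42 ± 0.34 (adjusted p = 0.407) without coating. Without batch 3 it was -0.05 ± 0.09 (adjusted p = 0.777), 0.01 ± 0.09 (adjusted p = 0.956) and -0.11 ± 0.09 (adjusted p = 0.467) on the same surfaces, which are values closer to 0 than with it.

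The 11 non-ATPase subunits of the cap, which hold the ubiquitin receptors, the deubiquitinase and the scaffold, had median log2 fold changes of 0.17 on fibronectin, 0.23 on laminin and 0.17 without coating. None was called on fibronectin by edgeR (6 at an unadjusted p under 0.05 and 0 by DESeq2's Wald test), while 4 rose on laminin and 2 without coating. With the batch block 6, 8 and 7 of the 11 rose. Psmd4 stood at 175, 181 and 198 CPM in fibronectin libraries 1 to 3 and 187, 205 and 212 CPM on laminin. On uncoated dishes Psmd4 stood at 183, 195 and 211 CPM, against 165, 165 and 163 CPM in suspension. Psmd4, a ubiquitin receptor, was nearly level across suspension and higher in each plated library. The log2 fold change of Psmd4 was 0.20 ± 0.07 (adjusted p = 0.0774) on fibronectin, 0.29 ± 0.07 (adjusted p = 0.014) on laminin and 0.27 ± 0.07 (adjusted p = 0.0246) without coating, and the laminin call was lost without suspension 3 alone of its 6 libraries.

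Psmd8 stood at 183, 194 and 225 CPM in fibronectin libraries 1 to 3 and 202, 212 and 249 CPM on laminin. On uncoated dishes Psmd8 stood at 190.1, 203 and 251 CPM, against 167, 159 and 171 CPM in suspension. Psmd8, a lid subunit, was above suspension in every plated library, with 0.31 ± 0.10 (adjusted p = 0.0787) on fibronectin, 0.42 ± 0.10 (adjusted p = 0.019) on laminin and 0.39 ± 0.10 (adjusted p = 0.0314) without coating. Psmd11 and Psmd13, also of the lid, rose on laminin, by 0.22 ± 0.06 (adjusted p = 0.0328) and 0.33 ± 0.09 (adjusted p = 0.0269) on the log2 scale. The large base scaffolds did not share a value. Psmd2 had log2 fold changes of 0.24 ± 0.10, 0.32 ± 0.10 and 0.28 ± 0.10 and Psmd1 of 0.06 ± 0.14, 0.03 ± 0.14 and -0.05 ± 0.14 on fibronectin, on laminin and without coating, and neither passed the threshold.

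Psmd14 stood at 143, 164 and 157 CPM in fibronectin libraries 1 to 3 and 166, 158 and 138 CPM on laminin. On uncoated dishes Psmd14 stood at 152, 156 and 135 CPM, against 147, 152 and 160.0 CPM in suspension. Psmd14, the deubiquitinase that removes ubiquitin chains from substrates, overlapped suspension on all 3 surfaces, and its log2 fold change was 0.05 ± 0.10 (adjusted p = 0.77) on fibronectin, 0.01 ± 0.10 (adjusted p = 0.944) on laminin and -0.03 ± 0.10 (adjusted p = 0.855) without coating. Psmd6, Psmd7, Psmd3 and Psmd12 were not called, with log2 fold changes between 0.08 and 0.33.

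**Figure D3:**
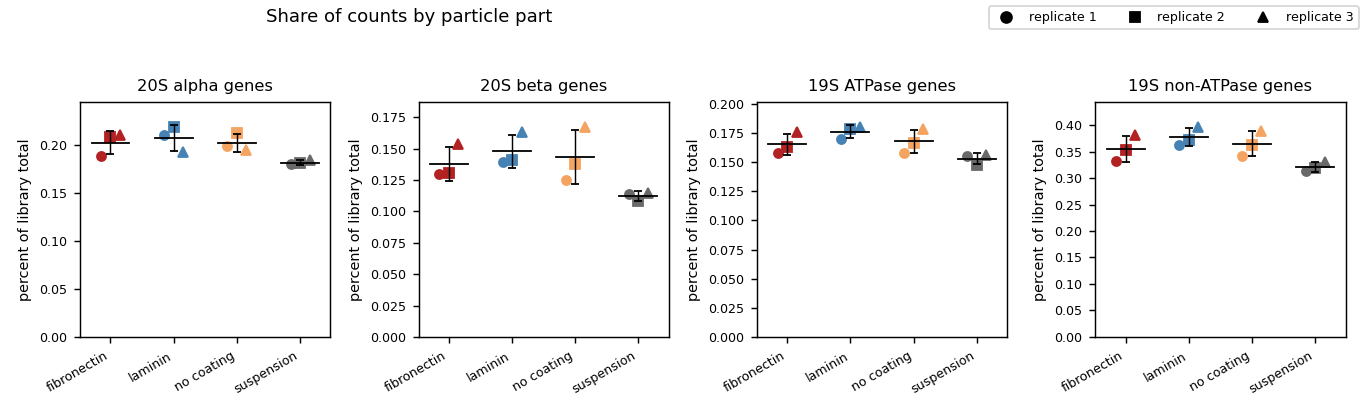
Percent of library counts in the 20S alpha, 20S beta, 19S ATPase and 19S non-ATPase genes, by library, with the mean as a line and the SD as a bar. The 20S beta share is 0.125 to 0.167% in plated libraries and 0.108 to 0.115% in suspension, and replicate 3 is the highest plated library of each group there but not for the 20S alpha genes on laminin and without coating.

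Among the 5 activators and inhibitor genes the members parted: 0 were called by edgeR on fibronectin (2 at an unadjusted p under 0.05 and 0 by DESeq2), 2 rose on laminin and 1 without coating. Psme1 and Psme2 form the interferon-inducible cap that opens the barrel without ubiquitin. Psme1 stood at 111, 107 and 123 CPM in fibronectin libraries 1 to 3 and 116, 120.0 and 133 CPM on laminin. On uncoated dishes Psme1 stood at 107, 116 and 136 CPM, against 103, 98.9 and 95.4 CPM in suspension. Its 3 suspension libraries were the lowest of the 12. Psme2 stood at 50.05, 54.9 and 61.4 CPM in fibronectin libraries 1 to 3 and 56.9, 60.7 and 60.8 CPM on laminin. On uncoated dishes Psme2 stood at 52.7, 55.2 and 64.9 CPM, against 49.3, 50.3 and 45.6 CPM in suspension. Psme2 lay above suspension in every plated library but fibronectin 1. Psme1 gave 0.24 ± 0.08 (adjusted p = 0.0971) on fibronectin, 0.31 ± 0.08 (adjusted p = 0.0269) on laminin and 0.29 ± 0.08 (adjusted p = 0.0467) without coating. Psme2 gave 0.23 ± 0.09 (adjusted p = 0.126) on fibronectin, 0.30 ± 0.09 (adjusted p = 0.039) on laminin and 0.27 ± 0.09 (adjusted p = 0.071) without coating, so that both rose on laminin and Psme1 without coating as well.

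Psme3 stood at 136, 158 and 155 CPM in fibronectin libraries 1 to 3 and 132, 158 and 161 CPM on laminin. On uncoated dishes Psme3 stood at 136, 159 and 161 CPM, against 154, 188 and 173 CPM in suspension. Psme3 encodes the related nuclear activator. The plated libraries of replicates 2 and 3 lay just above the lowest suspension library and those of replicate 1 below it, and within each batch every plated library was below its suspension library. Its log2 fold change was -0.17 ± 0.10 (adjusted p = 0.329) on fibronectin, -0.19 ± 0.10 (adjusted p = 0.202) on laminin and -0.16 ± 0.10 (adjusted p = 0.306) without coating. With the batch block, which compares libraries within a batch, it fell on each surface, by 0.16 ± 0.05 (adjusted p = 0.0396), 0.19 ± 0.05 (adjusted p = 0.0147) and 0.15 ± 0.05 (adjusted p = 0.0372) on the log2 scale.

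Psme4 stood at 317, 326 and 187 CPM in fibronectin libraries 1 to 3 and 321, 302 and 175 CPM on laminin. On uncoated dishes Psme4 stood at 329.6, 279 and 135 CPM, against 387, 371 and 392 CPM in suspension. Psme4 encodes PA200, a nuclear activator known to cap the barrel during chromatin and DNA repair work. All 9 plated libraries lay below all 3 suspension libraries, and the replicate 3 libraries were the lowest of their groups. The spread among plated libraries was wide, and the log2 fold change of -0.43 ± 0.34 (adjusted p = 0.437) on fibronectin, -0.52 ± 0.34 (adjusted p = 0.29) on laminin and -0.60 ± 0.34 (adjusted p = 0.239) without coating did not pass the threshold. With the batch block it was -0.52 ± 0.21 (adjusted p = 0.0974), -0.61 ± 0.22 (adjusted p = 0.0443) and -0.73 ± 0.22 (adjusted p = 0.0271), so the call appeared on laminin and without coating. Without batch 3 it was -0.19 ± 0.09 (adjusted p = 0.218), -0.27 ± 0.09 (adjusted p = 0.0728) and -0.28 ± 0.09 (adjusted p = 0.0812). Replicate 3 of Psme4 differed from the mean of the others by a log2 of -0.78, -0.83 and -1.18 when plated and 0.05 in suspension. The equal batch shift in every group that the block assumes was therefore not seen in Psme4.

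Psmf1 stood at 61.5, 61.8 and 68.9 CPM in fibronectin libraries 1 to 3 and 64.1, 67.7 and 73.4 CPM on laminin. On uncoated dishes Psmf1 stood at 57.1, 61.6 and 72.5 CPM, against 59.4, 55.4 and 60.4 CPM in suspension. Psmf1 encodes PI31, known as an inhibitor of the core in vitro. It lay above suspension on fibronectin and laminin and overlapped it without coating, and its log2 fold changes of 0.17 ± 0.08 (adjusted p = 0.221) on fibronectin, 0.23 ± 0.08 (adjusted p = 0.0759) on laminin and 0.14 ± 0.08 (adjusted p = 0.257) without coating were not past the threshold.

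The 6 assembly chaperones tested had median log2 fold changes of 0.22 on fibronectin, 0.22 on laminin and 0.16 without coating. By edgeR 1 rose on fibronectin, 1 on laminin and 0 without coating, where 3 had an unadjusted p under 0.05 and DESeq2 called 0; with the batch block 2, 3 and 2 rose. Psmd5 stood at 189, 209.6 and 210.0 CPM in fibronectin libraries 1 to 3 and 197, 200.2 and 202 CPM on laminin. On uncoated dishes Psmd5 stood at 180.0, 204 and 198 CPM, against 164, 175 and 184 CPM in suspension. Psmd5 lay above suspension on fibronectin and laminin and overlapped it without coating. Psmd5, which helps build the ATPase ring, rose on fibronectin alone of the 3 surfaces, with 0.25 ± 0.07 (adjusted p = 0.0476) on fibronectin, 0.20 ± 0.07 (adjusted p = 0.0716) on laminin and 0.17 ± 0.07 (adjusted p = 0.127) without coating; the difference between surfaces was not past the threshold (-0.05 ± 0.07 (adjusted p = 1) for laminin against fibronectin). The Psmd5 call held in 0 of the 6 fits that left out 1 library of its comparison, and was lost without batch 3. Psmg1 stood at 85.0, 84.2 and 91.8 CPM in fibronectin libraries 1 to 3 and 87.8, 93.7 and 92.0 CPM on laminin. On uncoated dishes Psmg1 stood at 76.0, 82.1 and 94.03 CPM, against 78.1, 76.2 and 75.8 CPM in suspension. Psmg1 too was above suspension on fibronectin and laminin and overlapped it without coating. Psmg1, a partner of Psmg2 in the pair that builds the alpha ring, gave 0.22 ± 0.07 (adjusted p = 0.0819) on fibronectin, 0.25 ± 0.07 (adjusted p = 0.035) on laminin and 0.15 ± 0.07 (adjusted p = 0.183) without coating. The laminin call of Psmg1 also held in 0 of its 6 such fits. Its partner Psmg2 gave 0.10 ± 0.08, 0.03 ± 0.08 and -0.03 ± 0.08 and overlapped suspension everywhere. Psmg4, Psmd9 and Psmd10, of which Psmd10 is known as gankyrin, were not called, with log2 fold changes between -0.10 and 0.29.

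The symbol rule also took in Psme3ip1 and Psmc3ip, which are not subunits. Psme3ip1 stood at 45.6, 47.4 and 47.8 CPM in fibronectin libraries 1 to 3 and 44.3, 42.7 and 50.9 CPM on laminin. On uncoated dishes Psme3ip1 stood at 44.3, 46.4 and 48.5 CPM, against 42.0, 38.5 and 42.7 CPM in suspension. Its plated libraries lay above suspension except laminin 2, which was just inside the suspension range. Psmc3ip stood at 19.7, 25.2 and 23.1 CPM in fibronectin libraries 1 to 3 and 19.9, 23.1 and 20.33 CPM on laminin. On uncoated dishes Psmc3ip stood at 19.5, 21.6 and 21.0 CPM, against 20.8, 21.6 and 21.6 CPM in suspension. The groups of Psmc3ip overlapped on each surface. Psme3ip1, whose product binds the Psme3 activator, gave 0.23 ± 0.07, 0.16 ± 0.07 and 0.19 ± 0.07, and Psmc3ip, a meiotic recombination factor, 0.12 ± 0.10, -0.01 ± 0.10 and -0.03 ± 0.10 on fibronectin, on laminin and without coating. Neither was called by edgeR or DESeq2 on any surface, and 1 of them, Psme3ip1, had an unadjusted p under 0.05 on each.

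Between surfaces no proteasome gene was called. For laminin against fibronectin the median log2 fold change over the 47 genes was 0.05, with 0 genes called where 0.15% of all genes were, 0 at an unadjusted p under 0.05, and 0 by DESeq2. For fibronectin against no coating it was -0.01, with 0 called where 0.18% of all genes were and 0 by DESeq2; at an unadjusted p under 0.05 there was 1, Psmb8, at -1.07 ± 0.48. For laminin against no coating it was 0.03, with 0 called among the 47 and 0 among all genes, 0 at an unadjusted p under 0.05 and 0 by DESeq2. The 20S beta genes gave medians of 0.07, -0.03 and 0.02 in these comparisons. The larger number of calls on laminin than on fibronectin was therefore not matched by a called difference between these surfaces. The laminin library lay above the fibronectin library of its batch in each of the 3 batches for 23 of the 47 genes (48.9%), against 25.9% of all genes, and below it in each for 1 (2.13%, against 13.5%). These counts use CPM from library totals. Ribosomal RNA genes took 4.24, 1.63 and 2.47% of fibronectin libraries 1 to 3 and 1.38, 0.448 and 1.25% of the laminin ones. Their part in these counts was not tested. With library totals only, the median log2 fold change for laminin against fibronectin was 0.08 over the 47 genes and 0.03 over all genes.

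Replicate 3 of the plated groups was described apart, with no test. In 26 of the 47 genes (55.3%) replicate 3 lay above replicates 1 and 2 on each of the 3 surfaces, against 32.7% of all genes, and in 3 genes (6.38%), Psmc6, Psme4 and Psmd1, below them, against 23.9%. Suspension replicate 3 lay above its group in 25 genes (53.2%, against 28% of all genes) and below in 7 (14.9%, against 21%). By part, the plated replicate 3 was above in 7 of 7 20S beta genes, 5 of 6 ATPases, 6 of 11 non-ATPase subunits and 3 of 5 activators and inhibitor, but in 1 of 7 20S alpha genes and 1 of 6 chaperones. The median log2 difference of replicate 3 from the mean of the others in the 20S beta genes was 0.24 on fibronectin, 0.21 on laminin, 0.36 without coating and 0.05 in suspension; in the 20S alpha genes it was 0.16, -0.06, -0.06 and 0.02. The medians of the alpha and the beta genes therefore parted in replicate 3 of laminin and of no coating, but the alpha genes did not move as a set. Psma7 was at 0.17 on laminin and 0.29 without coating, as the beta genes were. Psma3 was at -0.32 and -0.39, Psma4 at -0.31 and -0.23 and Psma6 at -0.27 and -0.14. Psma1, Psma2 and Psma5 lay between -0.06 and 0.07. The cause was not tested.

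**Figure D4:**
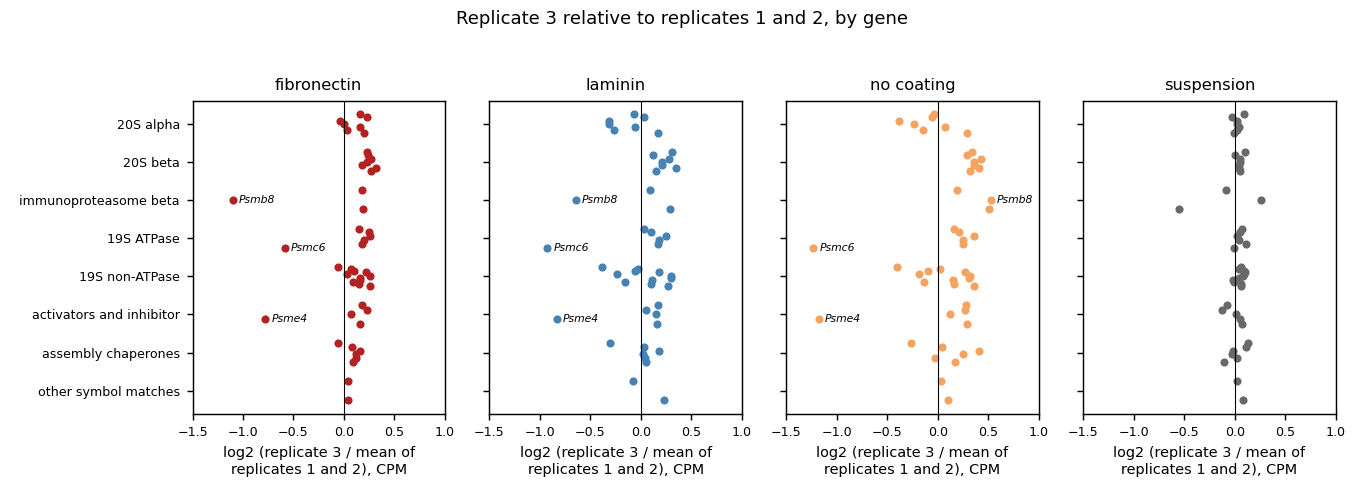
Log2 ratio of replicate 3 to the mean of replicates 1 and 2 for each tested proteasome gene, by role, in fibronectin, laminin, no coating and suspension libraries; each point is a gene. All 7 of the 20S beta genes lie right of 0 on the 3 surfaces, and Psmc6 and Psme4 lie between -1.23 and -0.59 there.

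The genes around the proteasome were read from lists of ubiquitin, partner, shuttle, Vcp, Nrf, interferon and heat shock genes. Of 9 tested partner genes, 3 rose on each surface and 0 fell, where 6.61%, 12.1% and 8.48% of all genes rose. Pomp stood at 177, 183 and 205 CPM in fibronectin libraries 1 to 3 and 186, 191 and 211 CPM on laminin. On uncoated dishes Pomp stood at 169, 187 and 225 CPM, against 149.7, 145 and 150.1 CPM in suspension. Pomp, the chaperone that matures the 20S barrel, lay above suspension in every plated library and rose on all 3, with 0.38 ± 0.09 (adjusted p = 0.022) on fibronectin, 0.40 ± 0.09 (adjusted p = 0.0117) on laminin and 0.40 ± 0.09 (adjusted p = 0.0154) without coating. Of the 6 fits that left out 1 library, the call held in 1 on fibronectin, in 6 on laminin and in 4 without coating. Sem1 stood at 92.2, 98.3 and 109.7 CPM in fibronectin libraries 1 to 3 and 99.4, 99.7 and 108 CPM on laminin. On uncoated dishes Sem1 stood at 101, 97.4 and 112 CPM, against 91.3, 77.0 and 82.6 CPM in suspension. All plated libraries were above suspension. Sem1, a small lid subunit whose symbol the rule did not take in, gave 0.29 ± 0.08 (adjusted p = 0.0369) on fibronectin, 0.29 ± 0.08 (adjusted p = 0.0245) on laminin and 0.33 ± 0.08 (adjusted p = 0.0212) without coating. These calls held in 1, 2 and 3 of the 6 fits that left out 1 library, and none of them held without batch 3.

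Zfand2a stood at 315, 333 and 368 CPM in fibronectin libraries 1 to 3 and 363, 381 and 452 CPM on laminin. On uncoated dishes Zfand2a stood at 373, 426 and 489 CPM, against 132, 138 and 132 CPM in suspension. The plated libraries all lay far above the suspension range, with those without coating the highest of each batch. Zfand2a, a zinc finger protein known in stressed cells to bind the 19S cap, had the largest positive log2 fold change of these lists, 1.37 ± 0.10 (adjusted p = 1.23e-05) on fibronectin, 1.57 ± 0.10 (adjusted p = 4.28e-06) on laminin and 1.69 ± 0.10 (adjusted p = 2.85e-06) without coating, and its calls held in each fit that left out a library and in each of 8 other settings. Adrm1, a ubiquitin receptor of the cap, had log2 fold changes of 0.16 ± 0.08 (adjusted p = 0.237) on fibronectin, 0.20 ± 0.08 (adjusted p = 0.102) on laminin and 0.23 ± 0.08 (adjusted p = 0.0793) without coating, which were not past the threshold. The cap's deubiquitinases Usp14 and Uchl5 had -0.25 ± 0.24, -0.32 ± 0.24 and -0.40 ± 0.24 for Usp14 and -0.43 ± 0.35, -0.46 ± 0.35 and -0.55 ± 0.35 for Uchl5 on fibronectin, on laminin and without coating, also not called.

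Of 3 tested ubiquitin and E1 genes, 0 were called on fibronectin by edgeR (1 at an unadjusted p under 0.05 and 1 by DESeq2), and 1 rose on laminin and without coating. Ubb stood at 59.7, 57.7 and 68.8 CPM in fibronectin libraries 1 to 3 and 64.9, 65.8 and 75.6 CPM on laminin. On uncoated dishes Ubb stood at 60.02, 58.5 and 74.8 CPM, against 54.2, 48.1 and 50.9 CPM in suspension. Ubb, a polyubiquitin gene, was above suspension in every plated library and gave 0.32 ± 0.10 (adjusted p = 0.0632) on fibronectin, 0.43 ± 0.10 (adjusted p = 0.0136) on laminin and 0.35 ± 0.10 (adjusted p = 0.0392) without coating. Uba6 stood at 55.9, 60.5 and 28.3 CPM in fibronectin libraries 1 to 3 and 59.7, 63.8 and 25.8 CPM on laminin. On uncoated dishes Uba6 stood at 60.7, 52.8 and 16.4 CPM, against 85.7, 93.2 and 89.7 CPM in suspension. Every plated library of Uba6, an enzyme that activates ubiquitin, lay below suspension, with replicate 3 the lowest of each plated group. Its log2 fold changes of -0.85 ± 0.47 (adjusted p = 0.272) on fibronectin, -0.84 ± 0.47 (adjusted p = 0.223) on laminin and -1.02 ± 0.48 (adjusted p = 0.167) without coating did not pass the threshold. Uba6 fell on each surface with the batch block, by 1.001 ± 0.30 (adjusted p = 0.0365), 1.01 ± 0.30 (adjusted p = 0.0254) and 1.24 ± 0.31 (adjusted p = 0.0143) on the log2 scale. The block assumes an equal batch shift in every group, which Uba6 did not show, as its replicate 3 was low when plated and not in suspension. Without batch 3 Uba6 fell on each as well, by 0.58 ± 0.10 (adjusted p = 0.0115), 0.52 ± 0.10 (adjusted p = 0.0102) and 0.62 ± 0.10 (adjusted p = 0.00647). Uba1, the main activating enzyme, was not called. The Ubb call on laminin held in 4 of the 6 fits that left out 1 library and that without coating in 2, and the Ubb call without coating was lost without batch 3.

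Of 9 tested genes of p97 and its cofactors, 1 rose on fibronectin and 2 each on laminin and without coating. Vcp stood at 1079, 1096 and 1265 CPM in fibronectin libraries 1 to 3 and 1156, 1122 and 1289 CPM on laminin. On uncoated dishes Vcp stood at 1083, 1122 and 1240.3 CPM, against 889, 926 and 998 CPM in suspension. The lowest plated library was above the highest suspension library. Vcp encodes p97, the ATPase that extracts ubiquitin-marked proteins from complexes and membranes, and gave 0.32 ± 0.08 (adjusted p = 0.0249) on fibronectin, 0.34 ± 0.08 (adjusted p = 0.0131) on laminin and 0.31 ± 0.08 (adjusted p = 0.0262) without coating. The Vcp call held in 2, 6 and 2 of the 6 fits that left out 1 library. Ubxn1, a cofactor, gave 0.26 ± 0.09 (adjusted p = 0.0833) on fibronectin, 0.41 ± 0.09 (adjusted p = 0.0114) on laminin and 0.31 ± 0.09 (adjusted p = 0.0413) without coating; the laminin call held in 5 of those 6 fits and the one without coating in 1. Among 6 shuttle genes, which carry ubiquitin-marked proteins to the cap, Ubqln2 fell on laminin and without coating (-0.24 ± 0.08, -0.37 ± 0.08 and -0.31 ± 0.08 over fibronectin, laminin and no coating). The Ubqln2 call held in 6 of the 6 such fits on laminin and in 1 without coating. Bag6 had 0.07 ± 0.10, 0.06 ± 0.10 and 0.11 ± 0.10 and was not called. On fibronectin 0 shuttle genes were called by edgeR, with 1 at an unadjusted p under 0.05 and 1 by DESeq2.

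Of the 8 tested genes of the Nrf1 and Nrf2 system, 2 rose on fibronectin, 1 rose and 1 fell on laminin, and 0 were called without coating by edgeR (4 at an unadjusted p under 0.05 and 0 by DESeq2). Nfe2l1, which encodes Nrf1, was not analysed here. Nfe2l2 stood at 278, 303 and 231 CPM in fibronectin libraries 1 to 3 and 310.0, 319.7 and 190.3 CPM on laminin. On uncoated dishes Nfe2l2 stood at 309.6, 292 and 177 CPM, against 212, 237 and 234 CPM in suspension. Nfe2l2, which encodes Nrf2, was above suspension in the plated libraries of replicates 1 and 2, and replicate 3 of laminin and no coating was below it; its log2 fold changes of 0.28 ± 0.24 (adjusted p = 0.475) on fibronectin, 0.27 ± 0.24 (adjusted p = 0.44) on laminin and 0.21 ± 0.24 (adjusted p = 0.555) without coating were not past the threshold. Without batch 3 Nfe2l2 rose on each surface, by 0.41 ± 0.09 (adjusted p = 0.024), 0.50 ± 0.09 (adjusted p = 0.00735) and 0.45 ± 0.09 (adjusted p = 0.0146), while with the batch block it was not called on any (adjusted p = 0.269, 0.321 and 0.484). The small Maf partners Mafk and Maff rose on fibronectin, by 0.76 ± 0.12 (adjusted p = 0.00246) and 0.58 ± 0.13 (adjusted p = 0.021), and Maff also on laminin, by 0.42 ± 0.13 (adjusted p = 0.0483). The Mafk call held in each setting and in each fit that left out 1 library. The Maff call held in 2 of those 6 fits on fibronectin and in 1 on laminin, and was lost without batch 3 on both. Ddi2, the protease that activates Nrf1, fell on laminin, by 0.31 ± 0.10 (adjusted p = 0.0497) on the log2 scale, a call lost in 5 of the 6 fits that left out a library. Without batch 3 the list gave 2 rises on fibronectin, 1 on laminin and 1 without coating, and 0 falls.

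Among 12 tested interferon and antigen presentation genes, 1 rose on fibronectin, 2 on laminin and 3 without coating. Irf1 stood at 59.3, 58.8 and 68.9 CPM in fibronectin libraries 1 to 3 and 59.6, 61.9 and 74.6 CPM on laminin. On uncoated dishes Irf1 stood at 59.6, 55.7 and 70.1 CPM, against 44.5, 39.5 and 41.3 CPM in suspension. Irf1, a transcription factor known to drive Psmb8, Psmb9 and Psmb10, was above suspension in every plated library and gave 0.61 ± 0.10 (adjusted p = 0.0036) on fibronectin, 0.65 ± 0.10 (adjusted p = 0.00206) on laminin and 0.58 ± 0.10 (adjusted p = 0.00479) without coating; its calls held in each fit that left out a library and in each of 8 other settings. Irf9 rose without coating (0.84 ± 0.16 (adjusted p = 0.00664)), and Ifngr1, an interferon gamma receptor chain, rose on laminin and without coating, by 0.22 ± 0.06 (adjusted p = 0.029) and 0.23 ± 0.06 (adjusted p = 0.0303), calls lost in each fit that left out 1 library. Ifit2, an interferon-induced gene singled out after its values were seen, stood at 2.604, 2.19 and 0.9995 CPM in fibronectin libraries 1 to 3 and 2.82, 2.25 and 1.73 CPM on laminin. On uncoated dishes Ifit2 stood at 2.95, 1.70 and 0.483 CPM, against 7.91, 3.55 and 5.27 CPM in suspension. All plated libraries of Ifit2 lay below suspension, opposite to Irf1. Its log2 fold changes of -1.48 ± 0.49 (adjusted p = 0.0811) on fibronectin, -1.28 ± 0.48 (adjusted p = 0.0845) on laminin and -1.64 ± 0.50 (adjusted p = 0.0558) without coating missed the threshold, while with the batch block it fell on each surface, with -1.495 ± 0.32 (adjusted p = 0.0104), -1.28 ± 0.32 (adjusted p = 0.0115) and -1.70 ± 0.34 (adjusted p = 0.0057). DESeq2's Wald test called it lower on fibronectin and without coating. Isg15, another interferon-induced gene, stood at 21.3, 13.6 and 19.6 CPM in fibronectin libraries 1 to 3 and 22.6, 12.6 and 18.6 CPM on laminin. On uncoated dishes Isg15 stood at 21.8, 14.9 and 21.2 CPM, against 14.9, 7.87 and 10.4 CPM in suspension. Each plated library of Isg15 lay above the suspension library of its batch. Isg15, also singled out after its values were seen, was not called by edgeR. With the batch block 4, 6 and 5 of the 12 genes rose on the 3 surfaces, and 1 fell on each. Of all genes 16.6%, 22.4% and 20.1% rose with the block, and 28.7%, 43.2% and 38.8% were called in either direction. Tap1, Tap2 and B2m were not called, with log2 fold changes between -0.02 and 0.27.

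Of 9 heat shock genes, 0 were called on fibronectin by edgeR (3 at an unadjusted p under 0.05 and 1 by DESeq2), 1 rose and 1 fell on laminin, and 1 rose without coating. Hspa1a, the inducible HSP70 gene, fell on laminin by 0.82 ± 0.16 (adjusted p = 0.0075) on the log2 scale, Dnajb1 rose there by 0.24 ± 0.07 (adjusted p = 0.035), and Bag3 rose without coating by 0.31 ± 0.09 (adjusted p = 0.0493). The Hspa1a call held in each of the 6 fits that left out 1 library and was lost without batch 3, where its adjusted p was 0.0633. The calls of Dnajb1 and Bag3 held in 1 of their 6 fits each. Over the 56 tested genes of these 7 lists, 7 rose and 0 fell on fibronectin, 10 rose and 3 fell on laminin, and 10 rose and 1 fell without coating, or 12.5%, 23.2% and 19.6% called, against 9.67%, 19% and 12.6% of all genes. The rises and falls with the batch block numbered 16 and 5, 20 and 6, and 19 and 7, or 37.5%, 46.4% and 46.4%, against 28.7%, 43.2% and 38.8%. Without batch 3 they numbered 6 and 1, 9 and 2, and 7 and 1, or 12.5%, 19.6% and 14.3%, against 9.25%, 18.9% and 12%. The lists' shares lay above those of all genes on each surface in each of these fits, least on laminin without batch 3 (19.6% against 18.9%). In the main fit 6.61%, 12.1% and 8.48% of all genes were called higher on the 3 surfaces. The lists were chosen with earlier results of these data known, and the difference from all genes was not tested.

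**Figure D5:**
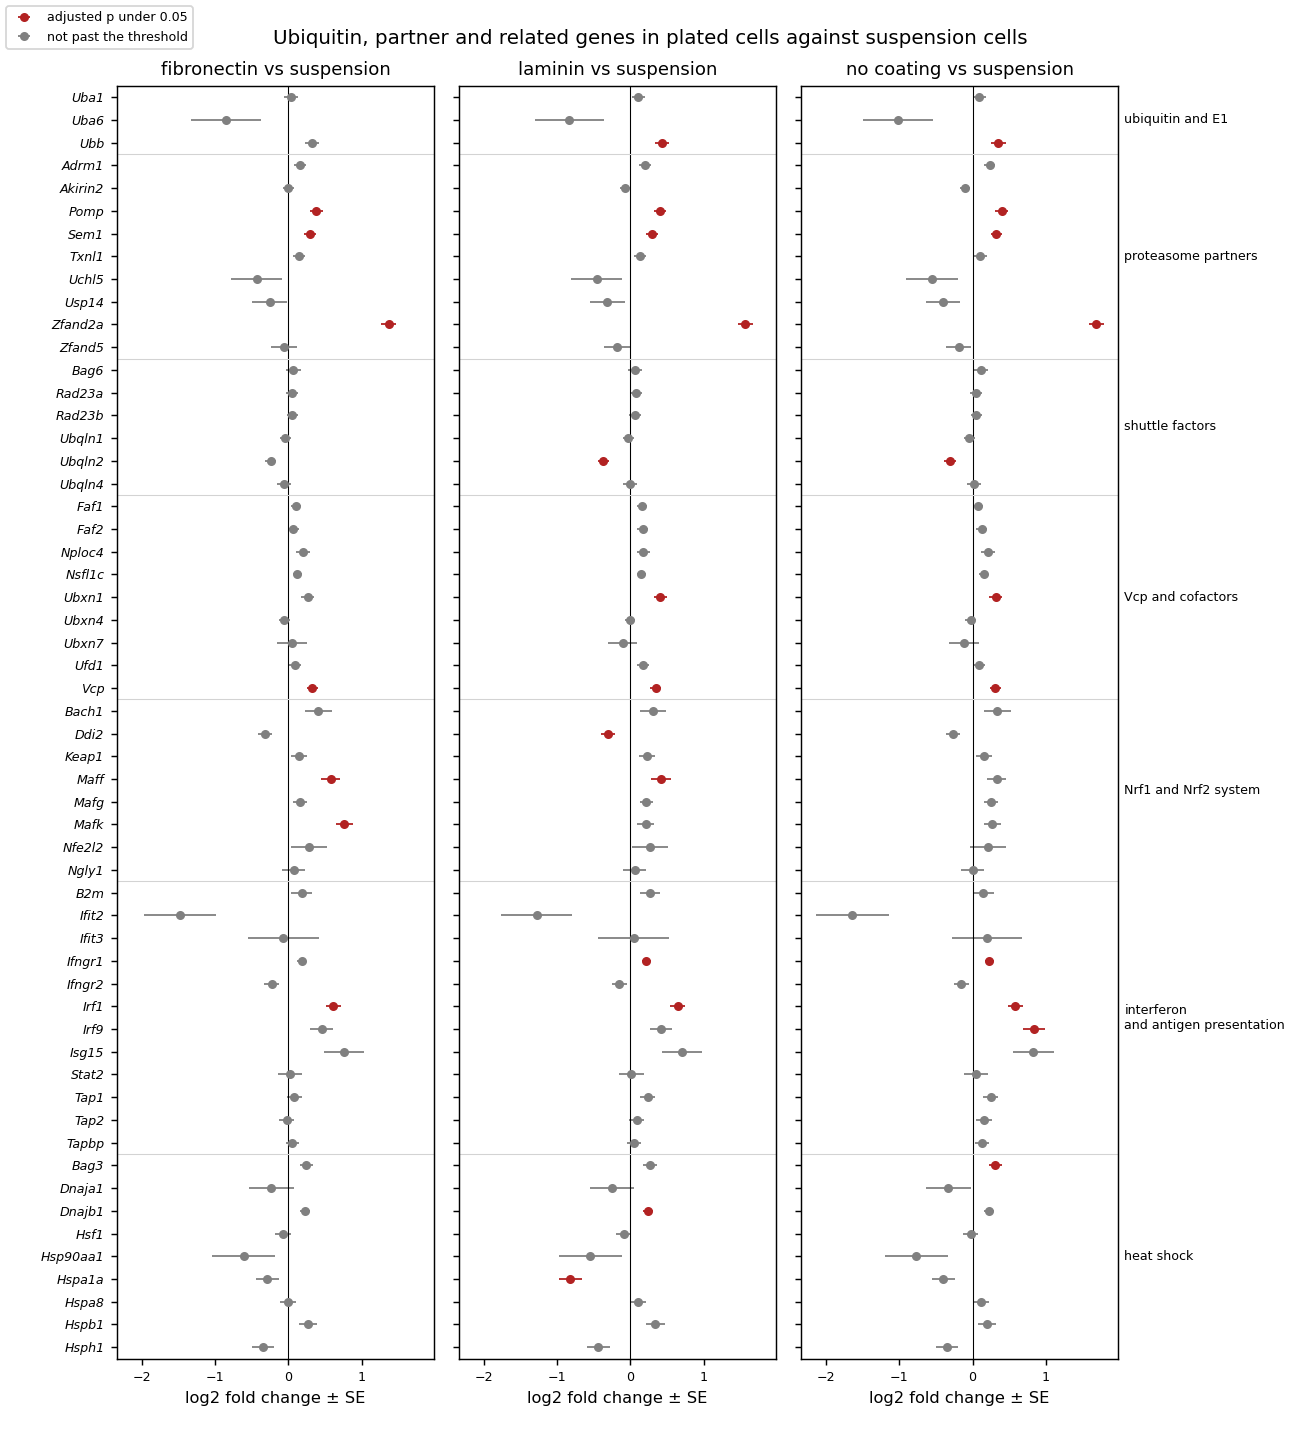
Log2 fold change with its standard error for ubiquitin, proteasome partner, shuttle, Vcp, Nrf, interferon and heat shock genes in fibronectin, laminin and no coating cells against suspension cells; red points passed an adjusted p of 0.05. Zfand2a lies between 1.37 and 1.69, and Pomp, Sem1, Vcp and Irf1 are red on all 3 surfaces.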

How the data were processed

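The authors deposited, per the file headers, unnormalized counts of reads by Entrez gene ID for every library apart. Reads were placed on build rn4, according to the submitters' processing notes. How reads were aligned and counted, and with which strand setting, is not given in the sources used here. Libraries were made with a stranded total RNA kit, per the labels' protocols. Of 16924 IDs, 16761 matched a symbol in the RefSeq table of GRCr8, which was used for names and promoter sequences; the other 163 held 0.301% to 0.357% of the counts. CPM were computed from library totals, so they hold no TMM scaling.

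Counts of all 12 libraries were tested with edgeR 4.0.16 in R 4.3.3 (glmQLFit and glmQLFTest, TMM scaling, filterByExpr on the 4 groups, 10020 genes tested, Benjamini-Hochberg threshold 0.05) in a means model of 4 groups with 8 residual degrees of freedom. The code was run on simulated data with no shared batches and with changes larger than those of the called proteasome genes. That run therefore does not bear on the calls of these genes. The biological coefficient of variation was 0.152 without and 0.100 with the batch as a block. The labels put same-numbered libraries in a shared batch, which is where the pairing comes from: deviations from group means correlated with a median of 0.41 and a minimum of 0.036 over 18 same-batch pairs, and a median of -0.12 over 36 other pairs, across genes, which are not independent replicates. Deviations from a group mean cancel within the group, so positive same-batch values by themselves draw those of the other pairs down. The contrast between these medians is therefore partly built in. Alternatives were library totals only, DESeq2 1.42.0 size factors and Wald test, no filter on low counts, the block, no batch 3, the 2 groups alone, each library left out in turn and, chosen after seeing the data, totals without ribosomal RNA genes.

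The members and lists were chosen with earlier results of these data known. Genes named with values in each library are up to 8 called members per comparison by p, the 2 of smallest p in each role, and a fixed set of catalytic, immunoproteasome, activator and deubiquitinase genes; of the other lists, the 2 of smallest p and 5 fixed genes. The rule's naming by level per kilobase could not be applied, as no lengths were at hand, and levels of different genes are not compared. Nfe2l1 and the other list genes without a row (Rps27a, Ecpas, Paaf1, Ube3c, Nlrc5 and Hspa1b) were not analysed here. A few further genes of the lists are not reported here and are left out of the lists' counts. The depth of 15875160 to 20852160 counts bounds the precision of low genes such as Psmb8.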

Additional observations from a re-analysis of the deposited data

How the results depend on the processing

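The medians against suspension kept their sign in every setting tried, while the number of proteasome genes called moved widely. On fibronectin, where 5 were called, there was 1 with library totals only, 1 without a filter on low counts, 12 with DESeq2's Wald test, 3 without batch 3, 10 with the 2 groups fitted alone and 1 with totals that left out ribosomal RNA genes, a setting chosen after seeing the data. On laminin, where 21 were called, the same settings gave 11, 13, 24, 21, 16 and 10. Without coating, where 14 were called, they gave 0, 4, 15, 6, 0 and 3; the 0 counts are edgeR's, and 28 genes had an unadjusted p under 0.05 as reported. DESeq2 size factors gave 4, 21 and 10. With the replicate block, which pairs libraries by batch, the counts were 26, 34 and 30. Leaving out 1 library of the comparison gave 0 to 5 on fibronectin, 2 to 17 on laminin and 0 to 20 without coating. Between surfaces 0 proteasome genes were called in every setting. The median for fibronectin against no coating, -0.01, lay between -0.059 and 0.026 when 1 library was left out, and was 0.019 without fibronectin replicate 1 and 0.026 without no coating replicate 3. It was above 0 as well with DESeq2 size factors or Wald test, without a filter on low counts and without fibronectin replicate 2. The median for laminin against no coating, 0.03, lay between -0.013 and 0.061 when 1 of its libraries was left out, and was below 0 without no coating replicate 1. The cause of these changes was not tested. Depth limits Psmb8 and Psmb11, and groups of 3 libraries cannot show an outlier.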
